A study of Mus musculus with 6 samples.

Results

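The genes of cholesterol and fatty acid synthesis were followed in mouse embryonic stem cells that lack 3 linker histones and in wild-type cells. Of 33 genes chosen for their place in these pathways, 26 were found among the 8251 genes that the platform annotation names with a probe set of their own, taking current and older symbols. They were read by 37 probe sets. No probe set of the table used here is listed with Pmvk, Acat2, Srebf2, Scap, Acaca, Fads2 or Soat1, and these 7 genes were not analysed here.

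Embryonic stem cells are pluripotent cells grown from the early embryo, and linker histones sit on nucleosomes and help to compact chromatin. The groups were a first null line (labelled H1_3KO1) and a second (labelled H1_3KO2), in both of which the linker histone genes H1c, H1d and H1e are null, and wild-type cells whose labels name no deletion. RNA came from exponentially growing cells of each line and was hybridised to 2 arrays per line, which the labels number as experiments 1 and 2, so that 6 arrays were available in all. No label tells whether a line's 2 arrays were hybridised with RNA of different cultures, or whether the null lines are independent clones. The p-values therefore cover array-to-array spread only, and part of it may be technical.

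Values are MAS5 signals, array intensities on a linear scale with nearly the same trimmed mean on every array (100.05 to 100.06). Array medians ran from 34.1 to 39.5, and the brightest of 19 bacterial and yeast control probe sets, taken as the background, read 9.1 to 17.2. The probe set of H1f2, the current name of H1c, measured 11.1 and 11.5 in null line 1, 13 and 14.4 in null line 2, and 70 and 68.2 in wild-type cells (log2 change -2.3 ± 0.11, SE, limma adjusted p = 0.00119). On 1 array of each null line this signal was at or below background, and on the others little above it, so the size of the change is limited by the background. The probe sets of H1f3 and H1f4, now used for H1d and H1e, were at or below background on all 6 arrays and check nothing about those genes. All 10 embryonic stem cell markers examined were on the array and above the filter on low values. Pou5f1, which maintains pluripotency, measured between 1497.7 and 1786.7 in the null cells, and 1536.3 and 1527.2 in wild-type cells. In the average of the null lines none of the 10 passed, 6 were fitted above wild type and 4 below. Their median log2 change was 0.15, beside -0.01 over all genes tested. At an unadjusted p under 0.05 by limma were 2, Utf1 (0.38) and Fgf4 (0.39), against 12.7% of all probe sets tested. The summed signal of the 10 lay between 8255 and 9127 on the null arrays, and was 8074 and 8000 on the wild-type arrays. Bright genes weigh most in such a sum, among them Dppa5a, which averaged 2790 in null and 2470 in wild-type cells.

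Cholesterol is built from acetyl-CoA through mevalonate and the isoprenoid farnesyl diphosphate, which is condensed to squalene, cyclised to lanosterol and trimmed in a series of steps to cholesterol. Fatty acids start from the same acetyl-CoA, which ATP citrate lyase makes in the cytosol, and are assembled by fatty acid synthase with NADPH that malic enzyme helps to supply, then elongated and desaturated. Most genes of both routes are targets of the transcription factors SREBP1 and SREBP2, which SCAP escorts from the endoplasmic reticulum when sterols are scarce and which the INSIG proteins hold back when sterols are plentiful.

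No gene of either pathway passed the test against wild type. With limma's adjusted p under 0.05, 0 of the 24 genes that passed the filter on low values were higher and 0 were lower in the average of the null lines, against 0.416% of all 7453 probe sets tested (0.282% higher and 0.134% lower). Before adjustment, p was under 0.05 for 2 genes, Me1 and Sc5d, against 12.7% of the probe sets. The median log2 change of the 24 genes was -0.07, beside -0.01 over all 5654 genes tested, and the single values lay between -0.54 (Sc5d) and 0.29 (Acly). A fold of 1.5 either way was outside the 95% interval of the change for 19 of the 24 genes, against 61.3% of all probe sets, and a fold of 2 for 23 of them, against 92.2%. Changes are on the log2(signal + 2) scale, and those of dim genes come out too small on it.

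**Figure D1:**
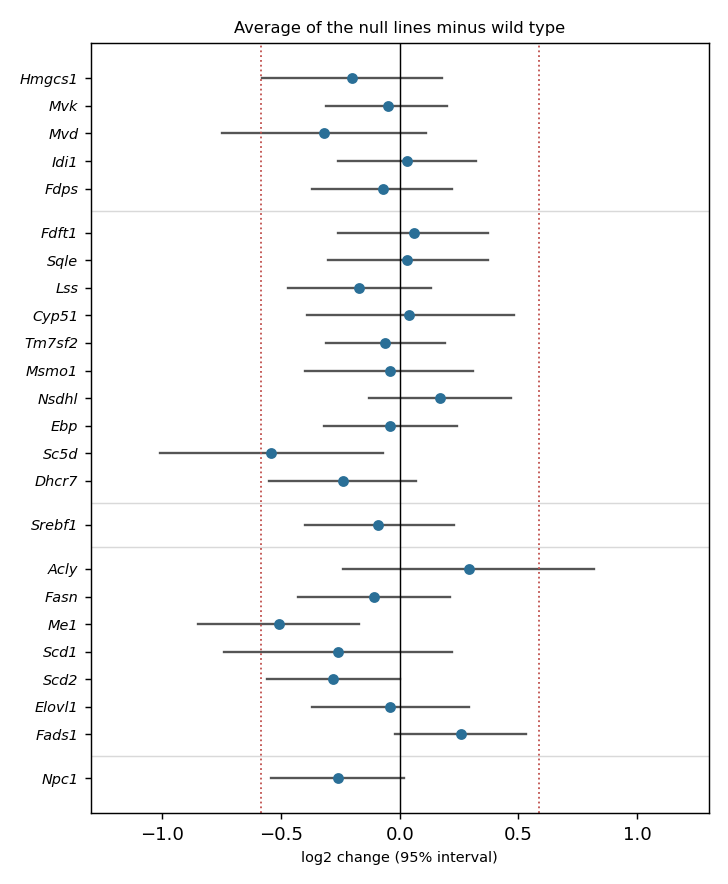
Change of the 24 tested genes, null average against wild type, on the log2(signal + 2) scale. Points are the fitted changes and lines their 95% intervals from limma over 6 arrays, dotted lines mark 1.5-fold, and grey lines part the groups by role (acetyl-CoA to farnesyl diphosphate, squalene to cholesterol, the regulator Srebf1, fatty acid synthesis and modification, and Npc1). The intervals of Me1 and Sc5d leave out 0 on the lower side, and neither gene passed after adjustment.

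Promoters are shown for Sc5d and Me1, which had the smallest p in the null average, for Mvd, which by brightest probe sets differed most between the null lines, and for Hmgcs1, which holds the stricter sterol element. The sequences are the 250 bases before the start of each gene, from RefSeq on GRCm38.p6, written 5′ to 3′ on the gene's strand. They lie at chr9:42264301-42264550 (minus strand), chr9:86695915-86696164 (minus strand, the outer of 2 starts listed), chr8:122443423-122443672 (minus strand) and chr13:119690101-119690350 (plus strand). Capitals mark matches on either strand to the sterol regulatory element, searched as TCACNCCAC and as the looser TCACNNCAC that contains it, the NF-Y box CCAAT, the SP1 box GGGCGG and the E-box CACGTG.
Sc5d promoter: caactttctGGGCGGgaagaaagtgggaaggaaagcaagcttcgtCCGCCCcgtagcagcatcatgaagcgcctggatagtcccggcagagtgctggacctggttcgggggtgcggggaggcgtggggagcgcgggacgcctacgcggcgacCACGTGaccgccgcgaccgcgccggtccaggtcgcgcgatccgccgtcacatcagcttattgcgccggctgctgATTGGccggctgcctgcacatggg
Me1 promoter: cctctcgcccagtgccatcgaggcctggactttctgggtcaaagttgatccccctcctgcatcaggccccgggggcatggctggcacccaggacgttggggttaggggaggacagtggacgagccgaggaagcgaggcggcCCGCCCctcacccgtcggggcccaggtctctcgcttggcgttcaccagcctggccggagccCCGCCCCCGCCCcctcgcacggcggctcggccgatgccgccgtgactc
Mvd promoter: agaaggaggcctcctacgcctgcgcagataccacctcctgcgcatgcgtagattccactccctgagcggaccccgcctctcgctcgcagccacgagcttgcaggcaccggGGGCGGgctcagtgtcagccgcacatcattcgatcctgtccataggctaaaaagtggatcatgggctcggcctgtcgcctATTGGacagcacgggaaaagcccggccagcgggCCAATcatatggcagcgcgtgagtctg
Hmgcs1 promoter: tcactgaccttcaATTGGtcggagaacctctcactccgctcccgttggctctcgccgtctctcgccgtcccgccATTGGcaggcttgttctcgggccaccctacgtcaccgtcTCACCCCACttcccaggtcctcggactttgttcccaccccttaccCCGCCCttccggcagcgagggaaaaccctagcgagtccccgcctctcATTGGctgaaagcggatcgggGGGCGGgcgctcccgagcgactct

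The promoter table held 25 windows for 19 of the 26 genes. The NF-Y box was in 76% of these windows, against 33.8% of all 32851 windows and 35.2% of the 5917 windows of genes tested here. The SP1 box was in 84%, against 32.7% and 58.9%. The looser sterol element was in 16% (Hmgcs1, Hsd17b7, Dhcr7 and Msmo1), against 3.11% and 3.24%, and the stricter form in 4%, that of Hmgcs1 from base -137 to -129 before the start, against 1.05% and 1.22%. The E-box was in 16% (Hsd17b7, Insig1, Dhcr7 and, from base -98 to -93, Sc5d), against 6.02% and 8.92%. Hsd17b7 and Insig1 were below the filter on low values, so the shares in windows of genes tested leave them out. The outer Me1 window held SP1 boxes alone, and that of Mvd NF-Y and SP1 boxes. Such matches describe letters, not binding, and the genes were chosen for pathways in which SREBP, NF-Y and SP1 are known to act.

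Between acetyl-CoA and farnesyl diphosphate, 5 of 7 genes were measured and none passed, with log2 changes in the null average between -0.32 and 0.03. Hmgcs1, which makes HMG-CoA, the substrate of the step that commits carbon to mevalonate, measured 713.6 and 518.5 in null line 1, 557.6 and 621 in null line 2, and 680.3 and 690.2 in wild-type cells. The arrays of line 1 spanned those of wild type, while both of line 2 lay below them (log2 change of the average -0.2, 95% interval -0.58 to 0.18, limma adjusted p = 0.64). Fdps, farnesyl diphosphate synthase, averaged 996 in null line 1, 937 in null line 2 and 1010 in wild-type cells by its brightest probe set, with a log2 change of -0.07 (95% interval -0.37 to 0.22). Its next probe set gave -0.04. Mvk, mevalonate kinase, was at -0.05, and Idi1, the isomerase of isopentenyl diphosphate, at 0.03.

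Mvd, which decarboxylates mevalonate diphosphate, measured 116.9 and 101.8 in null line 1, 87.4 and 58.9 in null line 2, and 110 and 111.7 in wild-type cells. Both arrays of line 2 lay below all others, while line 1 overlapped wild type. Against wild type, Mvd was at -0.61 ± 0.2 on the log2 scale in line 2 (SE, limma unadjusted p = 0.023, adjusted p = 0.28), and this value was -0.34 without the lower array of line 2. In line 1 it was at -0.02, with a 95% interval of -0.52 to 0.47.

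From squalene to cholesterol all 11 genes had a probe set, and 10 passed the filter. None passed the test, and log2 changes in the null average lay between -0.54 and 0.17, with 4 above 0 and 6 below. Those of Fdft1, squalene synthase, and Sqle, squalene epoxidase, were 0.06 and 0.03, and that of Lss, which closes the ring to lanosterol, was -0.17. Cyp51, the lanosterol demethylase, was at 0.04 and Msmo1, the sterol C4-methyl oxidase, at -0.04. Tm7sf2, a sterol C14 reductase, was at -0.06 and Ebp, the sterol isomerase, at -0.04. Nsdhl, which acts with Msmo1 in removing the C4 methyl groups, had the 4 null arrays above both wild-type arrays by its brightest probe set (0.17, adjusted p = 0.61), with 0.19 and -0.12 by its other probe sets, so that the direction differs between them. Dhcr7, the reductase of the last step of one route to cholesterol, was at -0.24 (95% interval -0.55 to 0.07). Hsd17b7, a 3-ketosteroid reductase, was below the filter, with signals between 9.8 and 20.4.

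Sc5d, the lathosterol oxidase that sets the C5 double bond of the sterol ring, had the largest difference of the 24 genes in the null average. By its brighter probe set it measured 29 and 33.8 in null line 1, 29.8 and 46.2 in null line 2, and 47.2 and 54 in wild-type cells. By its dimmer probe set, designed from the same sequence record, it measured 32 and 39.7 in null line 1, 25.2 and 25.5 in null line 2, and 54 and 50.2 in wild-type cells. With both probe sets the 4 null arrays lay below both wild-type arrays, but only narrowly with the brighter (46.2 in null line 2 against 47.2). The lower null line was line 1 with the brighter and line 2 with the dimmer. Whether either probe set also picks up other transcripts was not examined. The log2 change of the average was -0.54 ± 0.19 with the brighter (SE, limma unadjusted p = 0.0297, adjusted p = 0.33) and -0.75 ± 0.13 with the dimmer (unadjusted p = 0.000918, adjusted p = 0.104). Within experiment 1 these differences were -0.65 and -0.88, and within experiment 2 -0.43 and -0.62.

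The summed signals of markers of other cells that such cultures can hold were also lower on the null arrays, and their part in the lower Sc5d and Me1 values was not tested. Summed over the 14 extraembryonic endoderm markers on the array, the signal lay between 2499 and 2870 on the null arrays, and was 4258 and 4434 on the wild-type arrays. Most of that sum came from 4 bright genes, the keratins Krt8 (909 in null and 1480 in wild-type cells) and Krt18 (959 and 1670) and the collagens Col4a1 (232 and 376) and Col4a2 (194 and 349). Of the 11 endoderm markers that were tested, 1 passed, Col4a2, a basement membrane collagen, at -0.84 (limma adjusted p = 0.0433). Over all probe sets tested, 0.416% passed. Of these 11, 9 were fitted below 0, Afp among them at 0 when rounded, and their median was -0.36. The 4 bright genes were those at an unadjusted p under 0.05 by limma, against 12.7% of all probe sets tested. Gata4, Dab2, Lama1 and Lamb1 were at -0.23, -0.37, -0.18 and -0.36. The dim endoderm genes Sox17, Sox7 and Afp were at 0.05, 0.09 and 0, and Foxa2 was at background on all arrays. Summed over 12 feeder fibroblast markers, the signal lay between 1549 and 1645 on the null arrays, and was 1985 and 2081 on the wild-type arrays. None of the 6 fibroblast markers tested passed, 4 of them were below 0, and their median was -0.32. The 3 at an unadjusted p under 0.05 by limma were all lower in null cells, the smooth muscle actin Acta2 at -0.71, the protease inhibitor Timp3 at -0.66 and the matrix protein Sparc at -0.39 (adjusted p = 0.121, 0.104 and 0.305). Fibronectin, Fn1, was at -0.25, and the collagens Col1a1 and Col1a2 at 0.01 and 0.12. In such bulk samples, fewer cells of a type and less RNA per cell cannot be told apart.

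**Figure D2:**
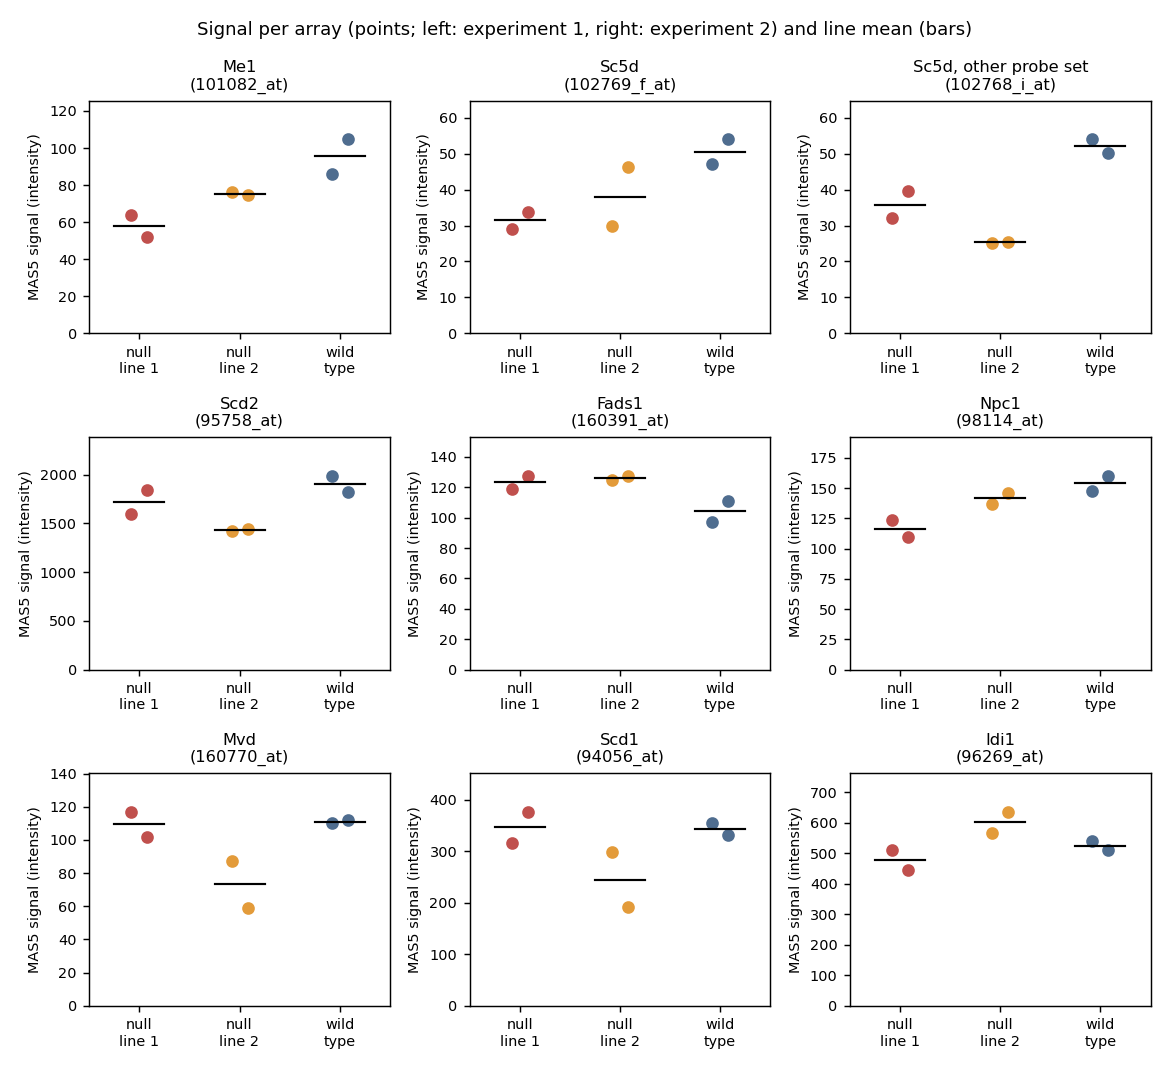
Signal of 8 genes on every array, in intensity units, by line, with both probe sets of Sc5d. Points are single arrays (experiment 1 on the left, experiment 2 on the right of each line) and bars the mean of the 2 arrays. The 4 null arrays lie below both wild-type arrays for Me1, Npc1 and both probe sets of Sc5d, and above them for Fads1.

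Of the regulators, only Srebf1 gave a level. Srebf1, the transcription factor gene that favours fatty acid synthesis, measured 182.1 and 214.3 in null line 1, 202.3 and 195.8 in null line 2, and 227.3 and 195.1 in wild-type cells. The groups overlapped, and the log2 change of the average was -0.09 (95% interval -0.4 to 0.23, limma adjusted p = 0.831). Insig1, the sterol-induced retention factor, was at or below background on all 6 arrays, with signals between 1.1 and 2.2, so that no change can be given for it.

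Of the genes of fatty acid synthesis and modification, 7 of 9 were measured and none passed, with log2 changes in the null average between -0.51 and 0.29. Fasn, fatty acid synthase, measured 512.4 and 406.4 in null line 1, 509.5 and 492.5 in null line 2, and 520.4 and 512.5 in wild-type cells. The 4 null arrays lay below both wild-type arrays, 1 of them by only 0.1 units, and the log2 change of the average was -0.11 (95% interval -0.43 to 0.21, limma adjusted p = 0.779). Acly, ATP citrate lyase, measured 858.2 and 1156.7 in null line 1, 802.5 and 822.9 in null line 2, and 920.2 and 587.7 in wild-type cells. The wild-type arrays lay farther apart than those of either null line, and the interval of the change in the average, -0.24 to 0.82, was the widest of the 24 genes.

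Me1, the cytosolic malic enzyme, had the smallest p of the 24 genes in the null average. It measured 63.7 and 52.2 in null line 1, 76.3 and 74.4 in null line 2, and 86.2 and 104.7 in wild-type cells. The order of the lines was line 1, line 2 and wild type from low to high, with no overlap between lines. The log2 change of the average was -0.51 ± 0.14 (SE, 95% interval -0.85 to -0.17, limma unadjusted p = 0.0098, adjusted p = 0.229), at -0.3 within experiment 1 and -0.73 within experiment 2. Against wild type, line 1 was at -0.7 ± 0.16 (adjusted p = 0.288) and line 2 at -0.33 ± 0.16 (adjusted p = 0.426), and the difference between the null lines was -0.37 (95% interval -0.77 to 0.02, adjusted p = 0.627; -0.24 without the lower array of line 1).

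The desaturases did not all lie on one side. Scd2, a stearoyl-CoA desaturase, measured 1602.3 and 1840.9 in null line 1, 1419.9 and 1439.4 in null line 2, and 1991.9 and 1819.4 in wild-type cells. By this brighter probe set line 2 was below all other arrays, and line 1 overlapped wild type. By the dimmer one line 2, at 521.9 and 587, overlapped line 1, at 554.1 and 676.8. In line 2 against wild type the log2 change was -0.41 ± 0.13 with the brighter (SE, limma unadjusted p = 0.0214, adjusted p = 0.275), and -0.24 with the dimmer. Scd1, its paralogue, measured 316.1 and 376.8 in null line 1, 298 and 191.3 in null line 2, and 356.1 and 331.9 in wild-type cells. Its change in line 2 against wild type, -0.52 ± 0.23 (adjusted p = 0.373), was -0.2 without the lower array of that line. The other Scd1 probe set that passed the filter measured 132.6 and 230.2 in null line 1, 164.5 and 72.1 in null line 2, and 170.3 and 280.9 in wild-type cells. Its last probe set was at background. Whether the probe sets of the 2 paralogues share signal was not examined.

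Fads1, the delta-5 desaturase of polyunsaturated fatty acids, lay on the other side. It measured 118.7 and 127.7 in null line 1, 124.9 and 127.6 in null line 2, and 97.4 and 111 in wild-type cells. All 4 null arrays were above both wild-type arrays, with log2 changes of 0.24 in line 1 and 0.28 in line 2 and an average of 0.26 ± 0.11 (SE, 95% interval -0.02 to 0.53, limma adjusted p = 0.424). The average was 0.16 without the lower wild-type array, with 0.15 in line 1 and 0.18 in line 2. Elovl1, an elongase of very long chains, was at -0.04.

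Npc1, which moves cholesterol out of lysosomes, measured 123.5 and 109.3 in null line 1, 137.2 and 146 in null line 2, and 147.7 and 160.3 in wild-type cells. The 4 null arrays lay below both wild-type arrays, with line 1 the lowest. The log2 change was -0.4 ± 0.13 in line 1 (SE, limma unadjusted p = 0.0231, adjusted p = 0.431), -0.12 in line 2 (adjusted p = 0.741) and -0.26 in the average (adjusted p = 0.424).

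In all, the 4 null arrays lay above both wild-type arrays for 2 of the 24 genes (8.33%), Nsdhl and Fads1, against 11.0% of all probe sets tested, and below them for 4 (16.7%), Sc5d, Me1, Npc1 and Fasn, against 12.0% (23.0% for either side). Of the 24 log2 changes, 17 were below 0, against 2916 of all 5654 genes tested.

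**Figure D3:**
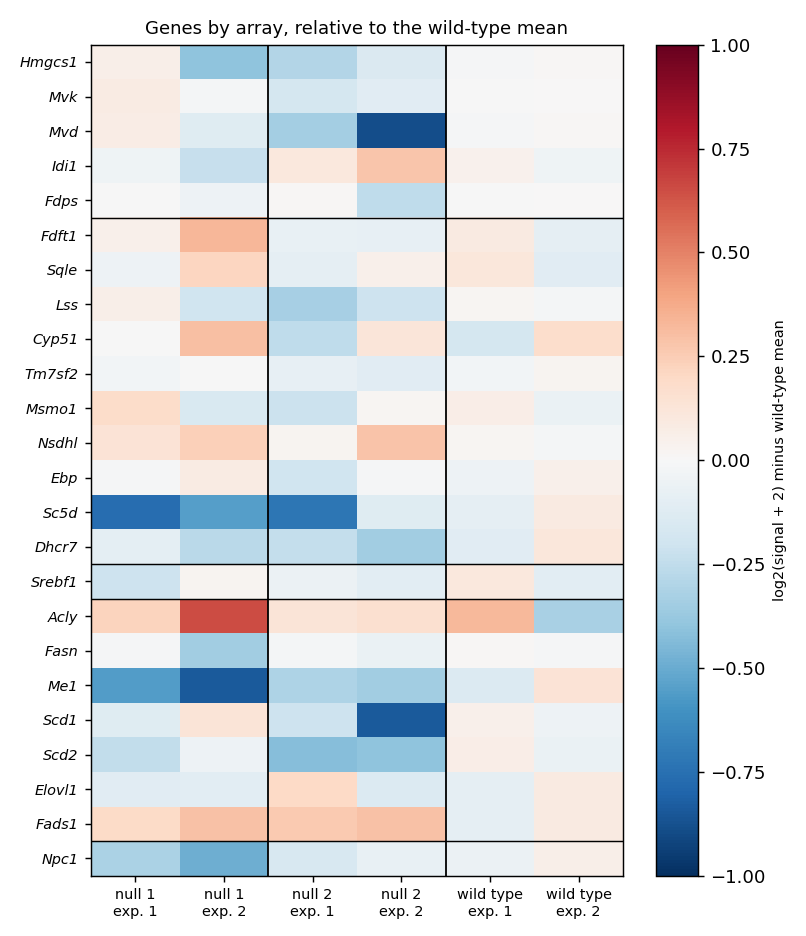
log2(signal + 2) of the 24 tested genes on each array, minus the mean of the 2 wild-type arrays of that gene. Columns are the arrays of null line 1, null line 2 and wild type, and rows are grouped by role, from the mevalonate steps at the top to Npc1 at the bottom. Deep blue cells are scattered over Sc5d, Me1, Mvd and Scd1 and do not run down any one column.

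Taken line by line, the comparisons share the wild-type arrays. In null line 1 none of the 24 genes passed by limma, against 0.134% of all probe sets (0.107% higher and 0.0268% lower). At an unadjusted p under 0.05 there were 3 (Me1, Npc1 and Sc5d), against 9.49%, and the median log2 change was -0.03, beside -0.01 over all genes. Its arrays did not overlap with wild type for 8 of the 24, 2 higher and 6 lower, against 18.9% higher and 20.6% lower over all probe sets (39.5% for either). The 95% interval lay inside 1.5-fold for 18 genes, against 50.4% of all probe sets, and inside 2-fold for 21, against 88.3%. In null line 2 none passed either, against 0.255% (0.188% higher and 0.0671% lower). At an unadjusted p under 0.05 there were 2 (Scd2 and Mvd), against 14.1%, and the median was -0.1, beside -0.01 over all genes. These counts take the brightest probe set of each gene, and the dimmer probe set of Sc5d had a smaller p than any of them, at -0.98 ± 0.15 (SE, limma unadjusted p = 0.000469, adjusted p = 0.087), against -0.42 with its brighter one (adjusted p = 0.455). Here 19 of 24 changes were below 0, against 2882 of all 5654 genes tested. The arrays did not overlap for 3 higher and 12 lower genes (12.5% and 50%), against 23.6% and 25.2% over all probe sets (48.8% for either). These 12 were Hmgcs1, Mvk, Mvd, Lss, Tm7sf2, Sc5d, Dhcr7, Fasn, Me1, Scd1, Scd2 and Npc1, with log2 changes between -0.61 (Mvd) and -0.04 (Fasn). The interval lay inside 1.5-fold for 14 genes, against 46.3%, and inside 2-fold for 22, against 87.2%.

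**Figure D4:**
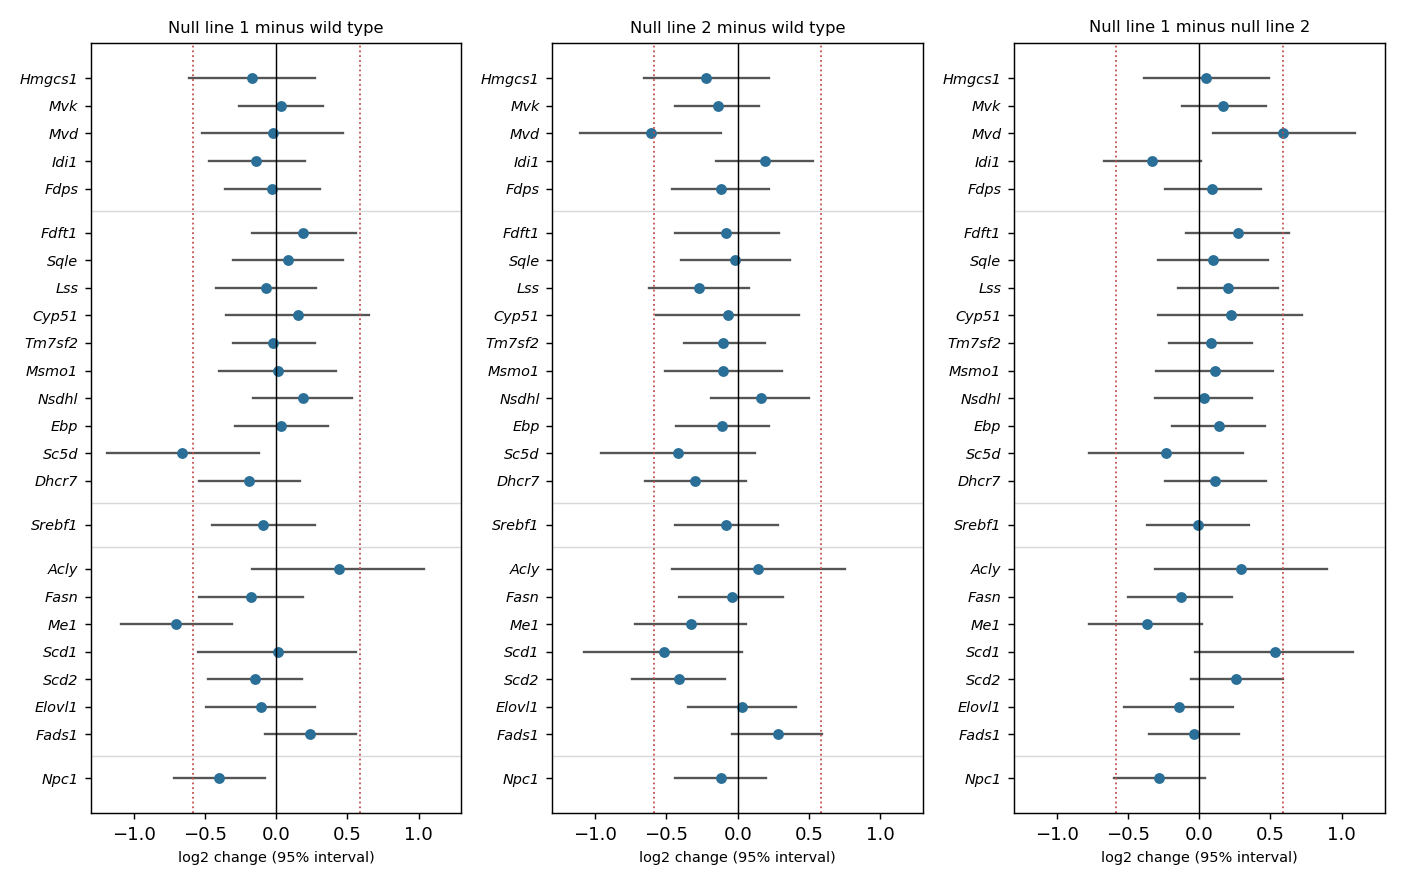
Changes of the 24 tested genes in null line 1 minus wild type, null line 2 minus wild type and null line 1 minus null line 2, on the log2(signal + 2) scale. Points are fitted changes, lines 95% intervals from limma and dotted lines 1.5-fold. Mvd and Scd1 are near 0 in line 1 against wild type and at -0.61 and -0.52 in line 2.

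The null lines were also compared with each other. None of the 24 genes passed by limma, against 0.0268% of all probe sets (0.0268% higher and 0.0% lower). At an unadjusted p under 0.05 there was 1 (Mvd), against 7.55%, and the median log2 difference of line 1 minus line 2 was 0.1, beside 0 over all genes. For 8 genes both arrays of line 1 lay above both of line 2 and for 3 below, against 18.9% and 20.2% over all probe sets (39.1% for either). The interval lay inside 1.5-fold for 14 genes, against 53.3%, and inside 2-fold for 22, against 89.2%. Of the 24 genes, 16 had higher fitted levels in line 1, against 2793 of all 5654 genes tested. Of the 7 genes of fatty acid synthesis and modification, 3 were higher in line 1 and 4 lower. Of the 10 genes from squalene to cholesterol, 9 had higher fitted levels in line 1 by their brightest probe sets, by at most 0.27 (Fdft1). The exception was Sc5d, at -0.23 with its brighter probe set, and its dimmer one gave the opposite sign, 0.46 (95% interval 0.11 to 0.82, unadjusted p = 0.019, adjusted p = 0.627). Over the brightest probe sets, the largest difference was that of Mvd, 0.59 ± 0.2 (SE, 95% interval 0.1 to 1.09, limma adjusted p = 0.627), and it was 0.31 without the lower array of line 2. Scd1 was at 0.53 ± 0.23 (adjusted p = 0.627), and at 0.21 without that array. Idi1 went the other way, with 509.3 and 446 in line 1, and 565.9 and 635.2 in line 2 (-0.33 ± 0.14, adjusted p = 0.627).

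Genes that neighbour these pathways gave no call either. Over all probe sets tested, 0.416% passed in the null average, and 12.7% had an unadjusted p under 0.05 by limma. With so few passing over all, no call in lists this short says little about their genes. Sterol transport, storage and efflux had 8 of 12 genes tested, none passing in the null average (1 at an unadjusted p under 0.05 by limma). In null line 1, 3 of the 8 were above 0, and in null line 2, 1. In the null average none was fitted above 0, with Scarb1 at 0 when rounded. The median there was -0.14, beside -0.01 over all genes tested. Lrp1, a receptor that takes up lipoprotein remnants, measured 92.6 and 101.1 in null line 1, 81.7 and 83.9 in null line 2, and 140.1 and 118.5 in wild-type cells (-0.52 ± 0.12, SE, adjusted p = 0.187). Its null arrays were all below wild type. Npc2, the lysosomal partner of Npc1, was at -0.18 (adjusted p = 0.521), and Lcat, which esterifies cholesterol on lipoproteins, at -0.34 (adjusted p = 0.493).

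For the supply of acetyl-CoA, NADPH and acyl-CoA and for elongation, 11 of 20 genes were tested and none passed (1 at an unadjusted p under 0.05), with a median of -0.01. Acss1, the mitochondrial acetyl-CoA synthetase, measured 55.7 and 52.1 in null line 1, 41.1 and 48.8 in null line 2, and 32.1 and 37.8 in wild-type cells (0.47 ± 0.13, SE, limma adjusted p = 0.236). All 4 null arrays were above wild type. Fabp5, a fatty acid binding protein, was at -0.37 (adjusted p = 0.478) and Dbi, the acyl-CoA binding protein, at -0.18 (adjusted p = 0.558).

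The 16 fatty acid oxidation genes tested, of 21, had a median of 0.02 with none passing (1 at an unadjusted p under 0.05). Slc25a20, the carnitine-acylcarnitine carrier of mitochondria, averaged 150 in null and 118 in wild-type cells (0.34 ± 0.11, SE, limma adjusted p = 0.299), the electron transfer flavoprotein subunit Etfb was at 0.2 and the dienoyl-CoA reductase Decr1 at -0.26. The 10 glycerolipid synthesis genes tested, of 12, had a median of -0.12, with the phosphatidylserine synthase Ptdss2 at -0.22, and Pcyt1a and Pcyt2, which activate choline and ethanolamine for phospholipids, at -0.26 and -0.2. The 6 isoprenoid branch genes tested, of 10, had a median of 0.09, with Fntb, a farnesyltransferase subunit, and Ggps1, geranylgeranyl diphosphate synthase, both at 0.11, and Icmt, the isoprenylcysteine methyltransferase, at -0.16. The 4 genes of SREBP processing and sterol sensing tested, of 11, had a median of 0.02, with the retinoid X receptor genes Rxrb and Rxra at 0.22 and -0.04 and Osbp, an oxysterol-binding protein, at 0.04. In these 3 lists none passed, and none had an unadjusted p under 0.05.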

How the data were processed

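Signals of 12488 probe sets were deposited for 6 arrays as intensities on a linear scale, and the submitters' processing notes name MAS5, with a version not given in the sources used here. Detection calls were not used. The deposited intensities share a trimmed mean and were not rescaled. Names came from the platform annotation, with symbols updated through RefSeq genes (GRCm38.p6). Leaving out 66 controls, 10833 probe sets carry 1 gene name, 396 more than 1 and 1193 no name. The brightest of a gene's probe sets, by mean over all arrays, stands for it. Of the 37 probe sets of the genes described, 30 passed the filter, a mean at or above the 40th percentile (20.9).

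Values were tested as log2(signal + 2) with limma 3.58.1 in R 4.3.3, a mean per line over all 6 arrays, with 3 residual and 3.17 prior degrees of freedom, and Benjamini-Hochberg adjustment over 7453 probe sets at 0.05. The number of arrays limits the precision. Genes described array by array are the 4 with the smallest p in each of 4 comparisons, plus others singled out after their values were seen; of each further list, up to 3 genes with the smallest p are named, others by exception. The members and lists were chosen with earlier results of these data known. The fit was tested on simulated data. Alternatives were the pseudocount, the filter, quantile normalization, a replicate block, a spread that follows the signal, averaging a gene's probe sets, and leaving out each array. Python 3.11.15 and matplotlib 3.10.9 drew the figures.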

Additional observations from a re-analysis of the deposited data

How the results depend on the processing

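No gene of the pathways passed limma's adjusted p of 0.05 in any of the 4 comparisons under any of the 12 alternatives run. That holds for the brightest probe set of each gene, or the average of its probe sets in that alternative. It also holds for the other probe sets tested, for which averaging gives no separate result. The dimmer Sc5d probe set came closest with a pseudocount of 16, in null line 2 against wild type (limma adjusted p = 0.068). In the null average its smallest value, also with that pseudocount, was 0.0834. Scd2 reached 0.0857 in null line 2 against wild type, with a spread that follows the signal. The 16 results of the genes with the smallest p kept their direction in all 192 recalculations. Part of these repeat the fitted change by design. They are the replicate block, the spread that follows the signal, the missing filter, and leaving out an array of a line outside the comparison. The 16 were also picked from these data for their small p. With the mean of a gene's probe sets, the median in null line 1 against wild type was -0.05. Leaving out 1 array, the median lay between -0.11 and -0.06 in the null average, -0.05 and -0.01 in line 1, -0.17 and -0.1 in line 2, and 0.03 and 0.14 in line 1 minus line 2.

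Over all probe sets, calls in the null average numbered 31, against 54 with a pseudocount of 16, 8 without the filter, 101 with a spread that follows the signal and between 7 and 13 with 1 array left out. In null line 1 against wild type they numbered 10, against 5 without the filter, 42 with the spread that follows the signal and between 4 and 9 with 1 array left out. In null line 2 against wild type they numbered 19, against 31 with a pseudocount of 16, 5 without the filter, 92 with the spread that follows the signal and between 0 and 10 with 1 array left out. Between the null lines they numbered 2, against 1 with a pseudocount of 16 or quantile normalization, and 0 without the filter, with averaged probe sets or with any 1 array left out.

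Arrays that share an experiment number deviated together only weakly (r of 0.053 to 0.095 over probe sets, themselves not independent), so the number is treated as a name. With the replicate block, 0 genes of the pathways passed in each comparison. Calls over all probe sets numbered 14 in the null average and 0 between the null lines. Because every line has an array of each number, the block cannot move the fitted changes. Their medians were therefore those without it, -0.07 in the null average, -0.03 in line 1, -0.1 in line 2 and 0.1 between the null lines.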
